A study of Homo sapiens with 15 samples.

Results

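The genes described here are 32 that encode enzymes, carriers and regulators of fatty acid oxidation in mitochondria and peroxisomes. They come from a list of names drawn up with earlier results of these data known, which does not hold every gene of the pathway, and each symbol was matched to an Ensembl gene ID of the count table. All 32 of 32 names matched among the 58395 genes of the table, and all 32 passed the filter on low counts that kept 16889 genes. Expression was measured by sequencing poly(A) RNA from H1299 cells, a widely used line of human non-small cell lung carcinoma whose label gives lymph node as the tissue. Cells were grown for 24 h in full RPMI with 5% serum, washed, and kept for 12 h in serum-free RPMI. The 5 media held neither glucose nor glutamine, 5 mM glucose, 4 mM glutamine, 5 mM glucose with 4 mM glutamine, or 5 mM glucose together with NH4Cl at 4 mM as a source of ammonium. Each medium had 3 libraries, no group held serum in these 12 h, and no medium held NH4Cl without glucose. All libraries come from a single cell line. The labels call the cells triplicate and give neither a day nor a batch, so each p-value rests on a spread between samples that may be purely technical.

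Fatty acid oxidation shortens fatty acids by a pair of carbons per round and yields acetyl-CoA and reduced cofactors. Long chains enter mitochondria as carnitine esters, made by CPT1A at the outer membrane, carried across the inner membrane by SLC25A20 and turned back into CoA esters by CPT2. Each round then needs an acyl-CoA dehydrogenase, a hydratase, a hydroxyacyl-CoA dehydrogenase and a thiolase. Electrons from the first step pass through the flavoprotein ETF to the respiratory chain. Peroxisomes shorten very long and branched chains by a separate set of enzymes, which begins with an acyl-CoA oxidase. In many tissues the nuclear receptors PPARA and PPARD, with coactivators such as PPARGC1B, drive transcription of these genes. Tumour cells can burn fatty acids when other fuels are short, and malonyl-CoA made from glucose carbon blocks CPT1A.

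Levels are given as CPM, the count rate of a gene in a library whose total was adjusted by TMM, and those with ± are the mean and SD of 3 libraries (n = 3). Changes are given as log2 ratios of the fit, with their standard error (SE) after ±. A gene was called when its p from the quasi-likelihood test of edgeR, adjusted by Benjamini-Hochberg over all 16889 genes, was under 0.05. Libraries held 14914127 to 19938691 counts, at which 3 counts equal 0.15 to 0.201 CPM. The 32 genes held 0.19 to 0.238% of the counts of a library, with 70 to 5890 counts per gene and library. The TMM factors were 0.793 to 0.794 with neither nutrient and 1.006 to 1.085 in the other media. The 10 most abundant genes took 12.3 to 12.4% of the counts with neither nutrient and 5.54 to 7.09% elsewhere. Without TMM scaling the median log2 change of all genes moved by 0.435 for glucose against neither nutrient and by 0.343 for glutamine against neither nutrient. Changes against that medium therefore hold on the TMM scale, as do the orders and overlaps of media given below unless stated otherwise. The last paragraph lists the signs that turn without TMM scaling, among changes called on either scale. Without it neither nutrient became the lowest medium of ACADM, ACADVL, HADHB, ECI1, ACAA2, DECR1, DECR2 and CRAT. Markers of the line were present, with VIM at 1830 to 2640 CPM, KRT8 at 159 to 562 CPM and KRT18 at 290 to 664 CPM as means of a medium. EPCAM reached at most 0.476 CPM and CDH1 at most 0.261 CPM. The 4 lung epithelial markers summed to 0.374 to 1.11 CPM and the 4 fibroblast markers to 1.18 to 2.76 CPM. The 8 endothelial, leukocyte, hepatocyte and adipocyte markers summed to 0.572 to 1.25 CPM and none of them passed the filter. In bulk RNA, fewer cells of a state and less RNA per cell cannot be told apart. Since the sources used here do not state whether counting used strand, reads of a gene and of an overlapping gene on the other strand cannot be told apart. This touches 11 of the 32, which are CPT2, CRAT, ACADVL, ACAD9, ECI2, ETFB, ETFDH, ACAA1, EHHADH, ACOT7 and ACOT8. A gene on the same strand shares exon bases with ACADM, ACAD10, ACAA1, ACAA2, ETFB, DECR2 and HSD17B4.

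With glucose present, adding glutamine raised 22 of the 32 genes and lowered 4. That is 68.8% and 12.5% of them, beside 34.2% and 33.7% of all genes tested, and 26 of 32 called in either direction (81.2%) beside 67.9% of all genes. The median log2 change was 0.23 over the 32 genes and 0.005 over all genes. The largest rises were those of ACOX3, HADH, ACOT7 and HSD17B4, and the 4 falls were those of ACOT9, ECI1, CPT1A and CPT2. Of the 32, only ACOX3 changed by 2-fold or more, beside 12.2% of all genes. The libraries of both media did not overlap for 25 of the 32, beside 69.9% of all genes.

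NH4Cl added to glucose raised 9 of the 32 genes and lowered 4, or 28.1% and 12.5%, beside 12.7% and 16.9% of all genes and 29.6% in either direction. The median log2 change was 0.09, beside -0.013 over all genes, and none of the 32 reached 2-fold, beside 0.586% of all genes. Against a 1.2-fold change in place of no change, 0 of the 32 passed in either direction by edgeR, beside 2.63% of all genes, whereas 13 of the 32 passed the usual test. Fitted on the compared media alone, 15 of the 32 were higher and 3 lower, beside 15.5% and 15.7% of all genes. Set directly against glucose with glutamine, glucose with NH4Cl gave 4 higher and 20 lower, or 12.5% and 62.5%, beside 31.2% and 33.4% of all genes and 64.6% in either direction. The median was -0.16, beside -0.012. None of the 32 reached 2-fold, beside 9.45% of all genes. The libraries did not overlap for 18 of the 32 with NH4Cl added to glucose, beside 39.9% of all genes, and for 24 with NH4Cl in place of glutamine, beside 67.5%. These comparisons share libraries with each other and with the one before.

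Glucose added to glutamine raised 19 of the 32 and lowered 5, or 59.4% and 15.6%, beside 32.6% and 33% of all genes and 65.6% in either direction, with a median log2 change of 0.18 beside -0.005. Without TMM scaling it gave 23 higher and 4 lower, beside 40% and 25.9% of all genes. None of the 32 reached 2-fold in it, beside 10.2% of all genes, and libraries did not overlap for 24, beside 68.2%. Glucose alone against neither nutrient gave 11 higher and 21 lower, beside 39.9% and 37.9% of all genes and 77.8% in either direction, with a median of -0.22 beside 0.05. Without TMM scaling it gave 17 higher and 10 lower, beside 60% and 21% of all genes, with a median of 0.21 beside 0.485. Glutamine alone against neither nutrient gave 10 higher and 18 lower, beside 37% and 35.8% of all genes and 72.8% in either direction, with a median of -0.13 beside 0.024. Without TMM scaling it gave 21 higher and 7 lower, beside 56.4% and 19.6% of all genes, with a median of 0.21 beside 0.367. Changes of 2-fold or more were found in 5 of the 32 with glucose, beside 27.4% of all genes, and in 1 with glutamine, beside 19.8%. Libraries did not overlap for 32 and 28 of the 32, beside 78.6% and 74.1% of all genes. In both comparisons the median of the 32 genes lay under that of all genes on either scale, while its sign differed between the scales.

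The interaction asks whether glucose acted differently with and without glutamine. It is the log2 change by glucose with glutamine minus that without. It was above 0 for 18 of the 32 and below 0 for 9, or 56.2% and 28.1%, beside 36.8% and 38% of all genes and 74.8% in either direction. The median was 0.34, beside -0.033 over all genes. Of the 32, 7 had an interaction of 2-fold or more, beside 35.6% of all genes. Without TMM scaling it was above 0 for 13 and below 0 for 13, beside 25.6% and 50.3% of all genes, with a median of 0.00 over the 32 genes and -0.368 over all genes.

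**Figure D1:**
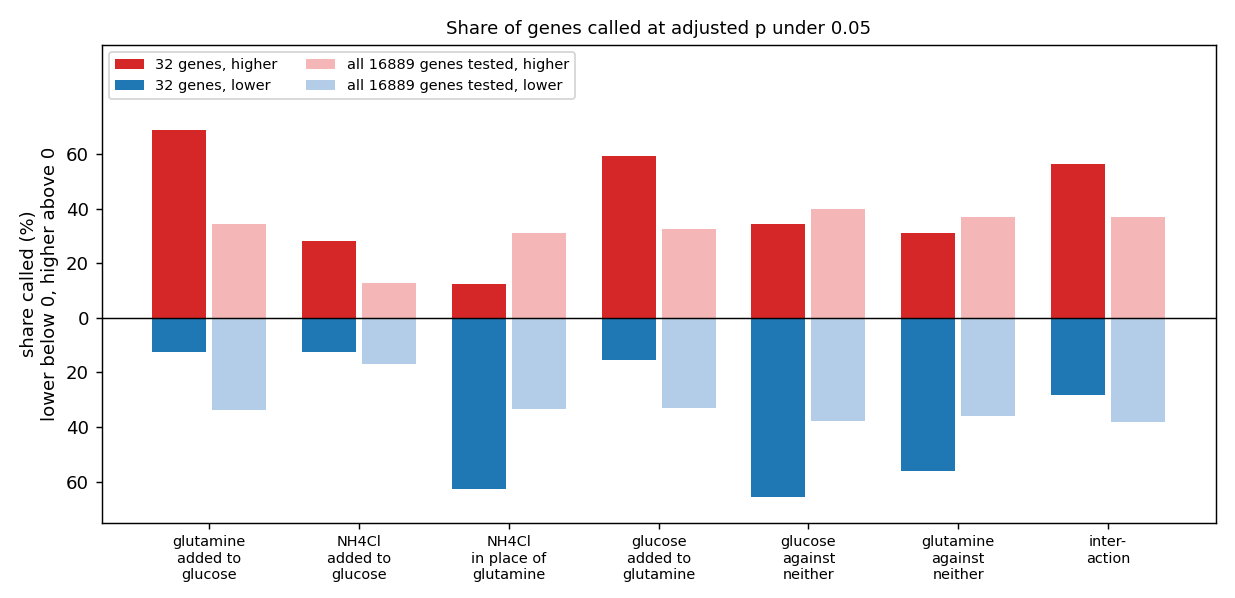
Share of genes called higher (above 0) or lower (below 0) at an adjusted p under 0.05, in percent, for the 32 fatty acid oxidation genes (dark bars) and all 16889 genes tested (pale bars), in 6 comparisons of media and the interaction. When glutamine was added to glucose, 68.8% of the 32 genes were higher beside 34.2% of all genes.

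**Figure D2:**
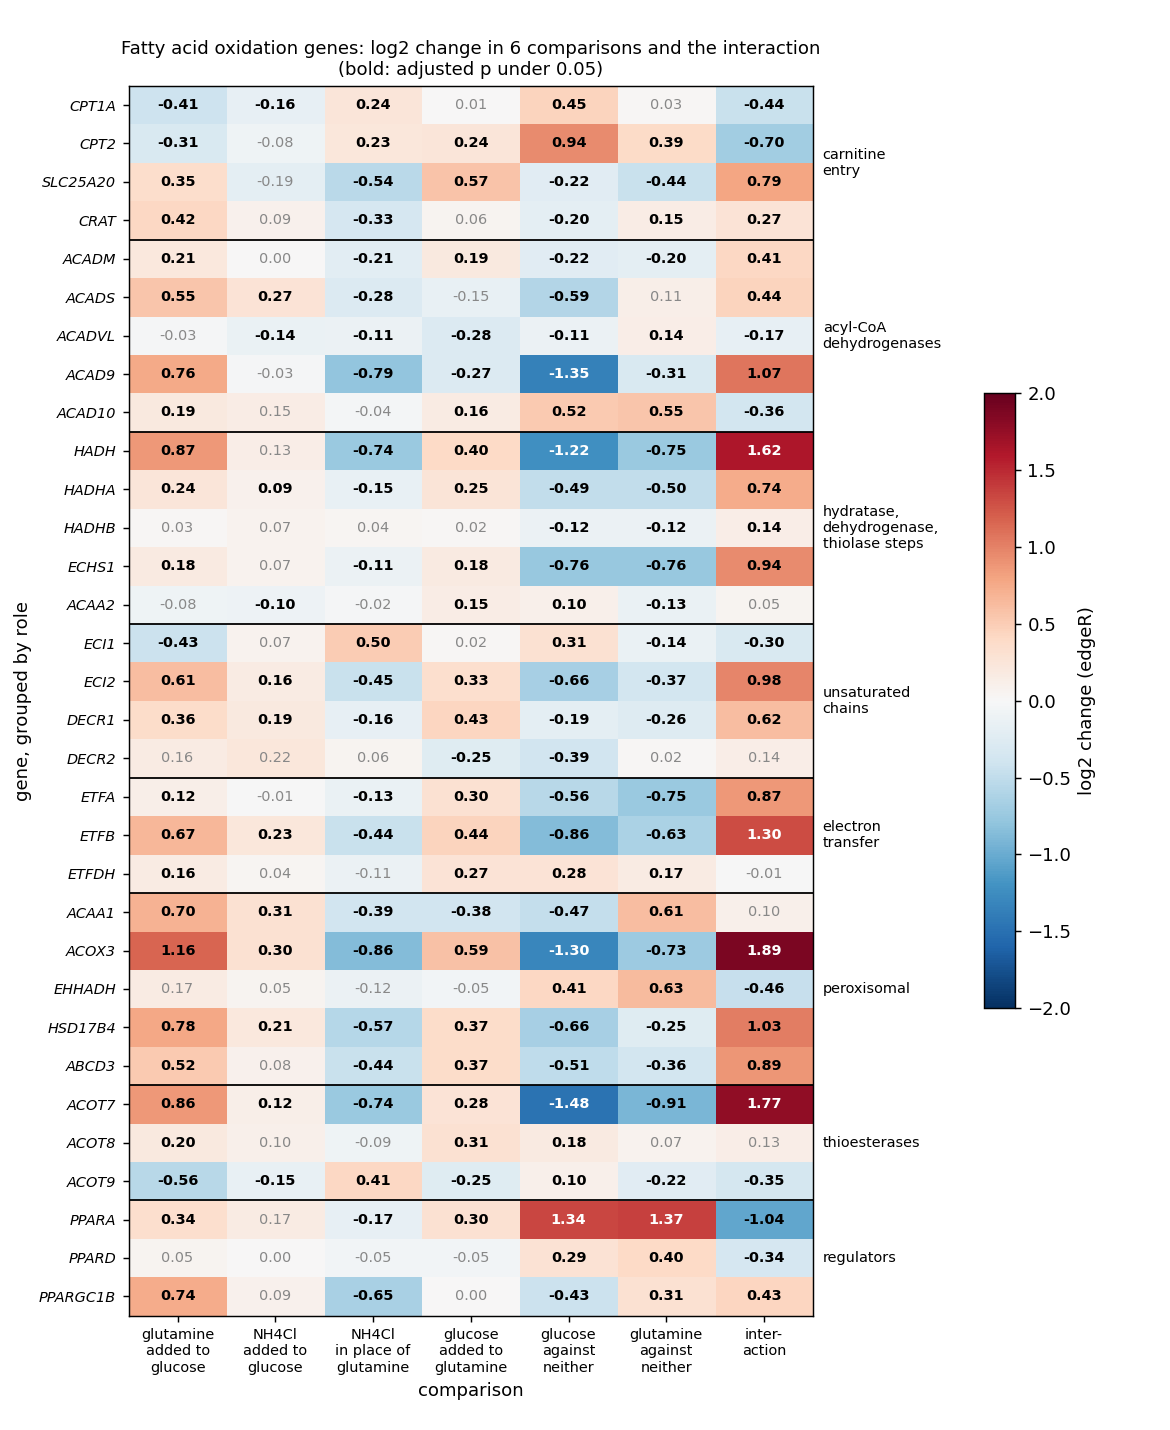
Log2 change of each of the 32 genes (rows, grouped by role) in 6 comparisons of media and the interaction (columns), with bold numbers where the adjusted p was under 0.05. CPT1A and CPT2 at the top fell where glutamine was added to glucose (-0.41 and -0.31), while most genes of the lower groups rose, up to 1.16 for ACOX3.

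The genes of carnitine entry moved in opposite directions when glutamine joined glucose. CPT1A and CPT2 fell, while the carrier gene SLC25A20 and the carnitine acetyltransferase gene CRAT rose. CPT1A (ENSG00000110090, chr11:68754620-68844410, minus strand) stood at 117, 116 and 110 CPM with neither nutrient, 154, 154 and 160 with glucose, 117, 118 and 117 with glutamine, 116, 116 and 121 with both nutrients and 138, 138 and 142 with glucose and NH4Cl. All 3 libraries with glucose lay above all others, those with glucose and NH4Cl came next, and the other media overlapped. CPT1A changed by -0.41 ± 0.03 (SE, edgeR adjusted p = 9.88e-29) when glutamine was added to glucose and by -0.16 ± 0.029 (SE, edgeR adjusted p = 1.49e-06) when NH4Cl was. With NH4Cl in place of glutamine it was higher by 0.24 ± 0.03 (SE, edgeR adjusted p = 5.49e-13). Glucose alone raised it by 0.45 over neither nutrient. Glucose on top of glutamine changed it by 0.01 ± 0.031 on the TMM scale, a value that did not pass the test. Without TMM scaling that change was 0.11, well above this SE, so the lack of a change holds on the TMM scale only.

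CPT2 (ENSG00000157184, chr1:53196429-53214197, plus strand), the inner membrane partner, stood at 8.31, 10.3 and 7.24 CPM with neither nutrient, 17.3, 15.4 and 16.7 with glucose, 11.5, 11.5 and 10.8 with glutamine, 13.2, 13.5 and 13.2 with both nutrients and 13.9, 17.5 and 15.4 with glucose and NH4Cl. It was lowest with neither nutrient and highest with glucose, where the range overlapped that with glucose and NH4Cl. CPT2 changed by -0.31 ± 0.082 (SE, edgeR adjusted p = 0.000453) when glutamine was added to glucose, and the fall held without each library in turn. The higher level with NH4Cl in place of glutamine (0.23) was lost without the library glucose and NH4Cl 2 (0.14, edgeR adjusted p = 0.197). The rise by glucose over glutamine (0.24) was lost without the library glutamine 3 (0.21, edgeR adjusted p = 0.0566). The 1250 bases it shares with genes on the other strand could hold reads of those genes.

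SLC25A20 ran the other way, at 18, 16.6 and 18.7 CPM with neither nutrient, 14.7, 15.7 and 15.3 with glucose, 13.1, 13.9 and 12.2 with glutamine, 20.2, 19 and 19 with both nutrients and 12.5, 14.9 and 12.3 with glucose and NH4Cl. The libraries with both nutrients lay above all others, and those with glutamine, glucose, and glucose and NH4Cl overlapped. SLC25A20 rose by 0.35 when glutamine was added to glucose, and by 0.57 ± 0.078 (SE, edgeR adjusted p = 3.01e-11) when glucose was added to glutamine. CRAT, which moves acetyl groups between CoA and carnitine, was likewise highest with both nutrients, at 85 ± 1.88 CPM, and lowest with glucose, at 63.7 ± 1.61 CPM. Without TMM scaling CRAT was lowest with neither nutrient, at 58.2 CPM beside 68.3 with glucose. Glutamine raised it by 0.42 in glucose.

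Among the acyl-CoA dehydrogenases, which open each mitochondrial round, 4 of 5 rose when glutamine was added to glucose and none fell, beside 34.2% higher and 33.7% lower of all genes. ACAD9 (ENSG00000177646, chr3:128879596-128916067, plus strand), which also serves the assembly of respiratory complex I, changed most. Its libraries gave 76, 75 and 74.9 CPM with neither nutrient, 29.4, 28.7 and 30.9 with glucose, 63.6, 58 and 61.2 with glutamine, 50.4, 49.1 and 51.3 with both nutrients and 27.7, 29.9 and 29.7 with glucose and NH4Cl. The levels with glucose and with glucose and NH4Cl overlapped and lay under all others. Glutamine added to glucose raised ACAD9 by 0.76 ± 0.049 (SE, edgeR adjusted p = 2.82e-34), and NH4Cl added to glucose changed it by -0.03 ± 0.055, which did not pass. With NH4Cl in place of glutamine it changed by -0.79 ± 0.05 (SE, edgeR adjusted p = 5.61e-35). Glucose lowered it both without glutamine (-1.35) and with it, with a log2 change of -0.27 ± 0.043 (SE, edgeR adjusted p = 4.77e-09), and the interaction was 1.07.

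Among the 26 of the 32 genes whose promoters were searched, ACAD9 and ACOX3 hold the palindrome bound by CREB. The promoter of ACAD9 is printed for this reason. The sequence runs 5′ to 3′ on the gene strand, from RefSeq on GRCh38.p14, chr3:128879370-128879595, and ends before the first annotated exon. Capitals mark, in order, an NRF1 element, the CREB element, an E-box and a second NRF1 element.
ACAD9 promoter: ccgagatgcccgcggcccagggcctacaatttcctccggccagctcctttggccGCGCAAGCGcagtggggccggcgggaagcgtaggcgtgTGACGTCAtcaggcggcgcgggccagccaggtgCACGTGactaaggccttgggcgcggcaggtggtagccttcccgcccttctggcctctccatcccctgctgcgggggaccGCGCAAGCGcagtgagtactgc
The CREB element TGACGTCA starts 158 bases before the RefSeq start of the gene and the NRF1 elements start 196 and 46 bases before it.

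The short-chain dehydrogenase gene ACADS stood at 13.5, 12.4 and 12.1 CPM with neither nutrient, 7.62, 8.95 and 8.85 with glucose, 13.9, 12.6 and 14.8 with glutamine, 13.2, 12.6 and 11.4 with both nutrients and 9.46, 10 and 11.2 with glucose and NH4Cl. Its lowest libraries were those with glucose, and on the TMM scale the media with neither nutrient, glutamine, and both overlapped. Without it the means were 10.1 CPM with neither nutrient and 13.4 with both. In glucose, glutamine raised ACADS by 0.55. NH4Cl raised it by 0.27 ± 0.1 (SE, edgeR adjusted p = 0.0288), a call lost without the library glucose 1 (0.20, edgeR adjusted p = 0.2) and without the library glucose and NH4Cl 3 (0.20, edgeR adjusted p = 0.191). The DESeq2 adjusted p was 0.054.

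The very long-chain gene ACADVL, the most abundant acyl-CoA dehydrogenase per kilobase, stood at 250, 271 and 266 CPM with neither nutrient, 236, 246 and 247 with glucose, 284, 294 and 290 with glutamine, 239, 239 and 235 with both nutrients and 216, 219 and 225 with glucose and NH4Cl. On the TMM scale it was highest with glutamine and lowest with glucose and NH4Cl. Without it neither nutrient was lowest, at 208 CPM beside 238 with glucose and NH4Cl. With glutamine in glucose ACADVL changed by -0.03 ± 0.025, which did not pass, while NH4Cl in glucose changed it by -0.14 ± 0.026 (SE, edgeR adjusted p = 1.1e-06) and glucose in glutamine by -0.28 ± 0.025 (SE, edgeR adjusted p = 6.02e-22). The medium-chain gene ACADM had means of 84.1 ± 3.11 CPM with glucose and 97.4 ± 0.214 CPM with both nutrients, a change of 0.21. ACAD10, a less studied relative, was lowest with neither nutrient at 17.8 ± 1.09 CPM and highest with both at 29 ± 2.35 CPM. Its rise of 0.19 when glutamine was added to glucose was lost without the library glucose 1 (0.13, edgeR adjusted p = 0.0731) and without the library of both nutrients 1 (0.14, edgeR adjusted p = 0.0607).

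The hydratase, dehydrogenase and thiolase steps that follow gave 3 rises and no fall among 5 genes when glutamine was added to glucose, beside the same 34.2% and 33.7% of all genes. HADH (ENSG00000138796, chr4:107989714-108035175, plus strand), the dehydrogenase for medium and short chains, led them. It stood at 47.8, 45.3 and 46.6 CPM with neither nutrient, 19, 21 and 20 with glucose, 26.1, 28.3 and 28.9 with glutamine, 35.5, 37.2 and 37.1 with both nutrients and 23.4, 22.6 and 19.7 with glucose and NH4Cl. The libraries with glucose overlapped those with glucose and NH4Cl, and every other step in the order from glucose through glutamine and both nutrients to neither was free of overlap on the TMM scale. Without it neither nutrient, with a mean of 37 CPM, lay under both nutrients with 39.5. HADH rose by 0.87 ± 0.059 (SE, edgeR adjusted p = 4.18e-32) when glutamine was added to glucose, and NH4Cl changed it by 0.13 ± 0.066, which did not pass. With NH4Cl in place of glutamine it was 1.67-fold lower, a log2 change of -0.74 ± 0.059 (SE, edgeR adjusted p = 1.03e-25).

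HADHA and HADHB encode the subunits of the mitochondrial trifunctional protein, which carries out the last 3 steps for long chains. Their RefSeq starts lie head to head on chromosome 2, with 306 bases between them. HADHA (ENSG00000084754, chr2:26190635-26244726, minus strand) stood at 366, 365 and 349 CPM with neither nutrient, 256, 251 and 263 with glucose, 260, 247 and 255 with glutamine, 314, 297 and 297 with both nutrients and 270, 271 and 276 with glucose and NH4Cl. HADHB (ENSG00000138029, chr2:26243170-26290468, plus strand) stood at 124, 123 and 122 CPM with neither nutrient, 113, 113 and 114 with glucose, 114, 111 and 116 with glutamine, 114, 115 and 117 with both nutrients and 120, 116 and 121 with glucose and NH4Cl. Libraries with neither nutrient lay above all others for both genes, and for HADHB the other media overlapped in a chain. Both orders hold on the TMM scale. Without it HADHB was lowest with neither nutrient, at 97.6 CPM beside 114 to 129 in the other media, and HADHA with neither, at 286 CPM, lay under both nutrients at 326 and glucose with NH4Cl at 295. HADHA rose by 0.24 ± 0.024 (SE, edgeR adjusted p = 7.4e-18) with glutamine in glucose, whereas HADHB changed by 0.03 ± 0.031, which did not pass. The means of HADHB spanned 1.09-fold over the media, the narrowest span of the 32, and those of HADHA spanned 1.42-fold.

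The ratio of HADHA to HADHB counts within a library does not depend on scaling, and it was compared after the values were seen. It was 2.95, 2.97 and 2.86 with neither nutrient and 2.75, 2.58 and 2.53 with both nutrients. It was 2.26, 2.22 and 2.31 with glucose, 2.29, 2.23 and 2.19 with glutamine, and 2.25, 2.34 and 2.28 with glucose and NH4Cl. The last 3 media overlapped and lay under the other two. Counts per gene are not divided by length here, so the ratio is not a ratio of molecules. In the mitochondrial flavoprotein ETF, the ratio of ETFA to ETFB counts was 6.56 ± 0.716 (SD, n = 3) with glucose. It was 4.46 ± 0.54 with both nutrients, with no overlap between these media. Between them lay 5.51 ± 0.367 with glucose and NH4Cl, 5.29 ± 0.399 with neither and 4.92 ± 0.645 with glutamine. Neighbouring media in this order overlapped, in a chain from glucose to both nutrients.

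**Figure D3:**
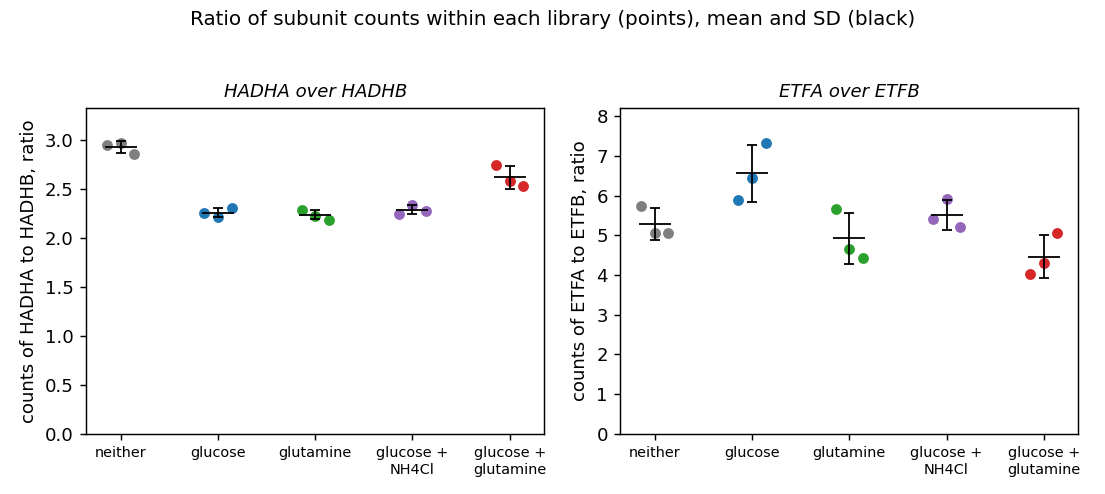
Ratio of the counts of HADHA to HADHB (left) and of ETFA to ETFB (right) within each library, by medium, with points for the 3 libraries and black marks for the mean and SD. HADHA to HADHB was 2.93 with neither nutrient and 2.62 with both, above 2.24 to 2.29 in the other 3 media.

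ECHS1, the short-chain hydratase gene, stood at 157, 170 and 164 CPM with neither nutrient, 92.7, 97.8 and 98.2 with glucose, 94.4, 95 and 99.4 with glutamine, 109, 109 and 108 with both nutrients and 95.6, 99.2 and 108 with glucose and NH4Cl. The medium with neither nutrient lay apart from the rest, and the other media overlapped in a chain. Its rise with glutamine in glucose was 0.18 ± 0.033, and glucose and glutamine alone each changed it by -0.76 from neither nutrient. ACAA2, the mitochondrial thiolase gene, ran from 62.9 ± 3.5 CPM with glutamine to 73.9 ± 1.02 CPM with glucose. Without TMM scaling ACAA2 was lowest with neither nutrient, at 54.6 CPM beside 63.4 with glutamine. It changed by -0.08 ± 0.038 when glutamine was added to glucose, which did not pass. Its fall with NH4Cl (-0.10, edgeR adjusted p = 0.0472) was lost without each of the 3 glucose libraries in turn (-0.10, -0.10 and -0.08), without the libraries glucose and NH4Cl 1 (-0.06) and 2 (-0.10), and in the fit with the replicate number as a block (edgeR adjusted p = 0.054).

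Unsaturated chains need an isomerase or a reductase to move or remove their double bonds. The isomerase genes ECI1 and ECI2 moved apart. ECI1 stood at 69.1, 76.7 and 68.4 CPM with neither nutrient, 86.2, 91.5 and 88.3 with glucose, 68.1, 62.8 and 64.1 with glutamine, 66.9, 66.4 and 64 with both nutrients and 91.9, 91.8 and 96 with glucose and NH4Cl, with both media that held glutamine lowest and glucose with NH4Cl highest. Without TMM scaling ECI1 was lowest with neither nutrient, at 56.7 CPM beside 65.5 with glutamine. With glutamine in glucose ECI1 changed by -0.43 ± 0.036 (SE, edgeR adjusted p = 1e-23), and NH4Cl in place of glutamine left it higher by 0.50 ± 0.036 (SE, edgeR adjusted p = 2.09e-29). ECI2, whose product works in both organelles, stood at 55, 53.7 and 56.8 CPM with neither nutrient, 34.2, 33.3 and 37.6 with glucose, 43.5, 39.9 and 45.3 with glutamine, 56.4, 53.8 and 50.7 with both nutrients and 40.8, 38 and 38.7 with glucose and NH4Cl. It was lowest with glucose and rose by 0.61 ± 0.049 with glutamine. On the TMM scale its range with both nutrients overlapped that with neither, and without it the means were 57.8 and 43.8 CPM. ECI2 shares 1365 exon bases with genes on the other strand.

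The mitochondrial reductase gene DECR1 was highest with both nutrients at 91.4 ± 1.41 CPM and lowest with glutamine at 68 ± 1.82 CPM. On the TMM scale neither end overlapped any other medium. Without it DECR1 was lowest with neither nutrient, at 64.8 CPM beside 68.5 with glutamine. It rose by 0.36 when glutamine was added to glucose, by 0.19 with NH4Cl and by 0.43 ± 0.034 (SE, edgeR adjusted p = 6.41e-25) when glucose was added to glutamine. The peroxisomal reductase gene DECR2 had means between 10.3 ± 0.795 CPM with glucose and 13.7 ± 0.659 CPM with glutamine, and neighbouring media overlapped throughout. Its change of 0.16 ± 0.093 with glutamine in glucose did not pass.

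The electron transfer genes ETFA, ETFB and ETFDH, which hand the electrons of the first step to ubiquinone, rose in 3 of 3 when glutamine was added to glucose, beside 34.2% of all genes. ETFB stood at 19.5, 23.1 and 21.5 CPM with neither nutrient, 12.4, 12.1 and 10.6 with glucose, 12.6, 14.2 and 14.5 with glutamine, 20.4, 18.8 and 16.9 with both nutrients and 14.1, 12.9 and 14.3 with glucose and NH4Cl. On the TMM scale the libraries with glucose lay lowest, and those with both nutrients overlapped those with neither. Without it the means were 20.2 CPM with both nutrients and 17 with neither. Glutamine raised ETFB by 0.67 ± 0.081 (SE, edgeR adjusted p = 8.7e-14) in glucose, and glucose raised it by 0.44 ± 0.078 (SE, edgeR adjusted p = 2.15e-07) in glutamine. Its rise with NH4Cl (0.23, edgeR adjusted p = 0.0311) was lost without the libraries glucose 3 (0.17), glucose and NH4Cl 1 (0.21) and glucose and NH4Cl 3 (0.21).

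ETFA stood at 112, 117 and 109 CPM with neither nutrient, 73.2, 78.1 and 77.8 with glucose, 71, 65.8 and 64.6 with glutamine, 81.9, 80.7 and 85.8 with both nutrients and 76.3, 76.6 and 74.6 with glucose and NH4Cl, lowest with glutamine and highest with neither nutrient. It rose by 0.12 ± 0.035 with glutamine in glucose and by 0.30 ± 0.036 with glucose in glutamine. ETFDH, the ubiquinone oxidoreductase gene, ran from 18.9 ± 2.12 CPM with neither nutrient to 25.7 ± 1.52 CPM with both. Its rise of 0.16 with glutamine in glucose was lost without the libraries glucose 3 (0.12, edgeR adjusted p = 0.135), both nutrients 1 (0.12, edgeR adjusted p = 0.13) and both nutrients 2 (0.15, edgeR adjusted p = 0.0561).

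Of the peroxisomal genes ACOX3, EHHADH, HSD17B4, ACAA1 and ABCD3, 4 of 5 rose when glutamine was added to glucose, beside 34.2% of all genes, with a median log2 change of 0.70. With the peroxisomal DECR2 and ACOT8, described under their other roles, 5 of 7 rose, with a median of 0.52. ACOX3 (ENSG00000087008, chr4:8366282-8440723, minus strand) encodes the oxidase for branched chains and had the largest change of the 32 when glutamine was added to glucose. It stood at 31.4, 32.5 and 35.5 CPM with neither nutrient, 13, 12.7 and 14.6 with glucose, 21.3, 18.5 and 20.3 with glutamine, 31, 29.6 and 29.7 with both nutrients and 16.6, 15.8 and 17.2 with glucose and NH4Cl. No medium overlapped another, and the order ran from glucose through glucose with NH4Cl, glutamine and both nutrients to neither. Without TMM scaling neither nutrient, with a mean of 26.3 CPM, lay under both nutrients with 32.5. Glutamine added to glucose raised ACOX3 2.24-fold, a log2 change of 1.16 ± 0.069 (SE, edgeR adjusted p = 5.57e-38). NH4Cl raised it by 0.30 ± 0.078 (SE, edgeR adjusted p = 0.00111), and with NH4Cl in place of glutamine it changed by -0.86 ± 0.067 (SE, edgeR adjusted p = 1.77e-26). Glucose lowered it without glutamine (-1.30) and raised it with glutamine, by 0.59 ± 0.064 (SE, edgeR adjusted p = 2.87e-16), and the interaction was 1.89.

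The 81 bases before the start of ACOX3 are shown for the same CREB palindrome, in capitals. They lie at chr4:8440724-8440804 on the minus strand and are printed 5′ to 3′ on that strand, from RefSeq on GRCh38.p14.
ACOX3 promoter: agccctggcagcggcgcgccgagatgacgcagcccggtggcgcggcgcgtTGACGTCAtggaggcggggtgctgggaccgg
The element starts 31 bases before the start site, and a second RefSeq start of the gene holds another 71 bases before it. Promoters of 250 bases were searched on both strands for 26 of the 32 genes, in 35 windows. The rest of the 32, DECR1 among them, were not searched, so the counts below say nothing about them. DECR1 was left out whether or not a promoter could be found for it. TGACGTCA occurred in 3 of the 35 windows, of ACAD9 and ACOX3, and in 1.65% of 35116 promoters of all genes. The core CAAAGGTCA of the repeat bound by PPAR and RXR occurred in none of the 35 windows and in 0.339% of all. The estrogen-related receptor element TCAAGGTCA likewise occurred in none, and in 0.319% of all. At shares this low, absence from 35 windows does not set these genes apart from others. GCGCANGCG, the NRF1 element, occurred in 5 of the 35 windows, of ABCD3, ACAD10, ACAD9, ETFB and PPARA, and in 6.56% of all. TGATGCAA, an element of ATF4 and C/EBP, occurred in 1 of the 35 windows, of ACOT7, and in 0.772% of all. The sterol element TCACCCCAC occurred in 1 window, of PPARGC1B, and in 0.362% of all. CACGTG occurred in 1 window, of ACAD9, and in 6.34% of all. The matches in the printed sequences share no bases with each other, the NRF1 matches of PPARA overlap, and a match shows letters and not binding.

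HSD17B4 (ENSG00000133835, chr5:119452443-119637199, plus strand), the hydratase and dehydrogenase of the peroxisomal round, stood at 118, 109 and 108 CPM with neither nutrient, 69.6, 70.3 and 73.2 with glucose, 96.8, 92 and 93.6 with glutamine, 121, 122 and 122 with both nutrients and 83.6, 82.8 and 79.1 with glucose and NH4Cl. On the TMM scale no medium overlapped another, with glucose lowest and both nutrients highest. Without it the mean was 88.6 CPM with neither nutrient and 88.5 with glucose and NH4Cl. HSD17B4 rose by 0.78 ± 0.033 (SE, edgeR adjusted p = 2.54e-55) when glutamine was added to glucose, NH4Cl raised it by 0.21, and glucose added to glutamine raised it by 0.37. ABCD3, an importer of acyl-CoA into peroxisomes, had means of 40.1 ± 1.5 CPM with glucose and 57.8 ± 2.96 CPM with both nutrients. It rose by 0.52 with glutamine in glucose.

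ACAA1, the peroxisomal thiolase gene, stood at 18.2, 21 and 20.9 CPM with neither nutrient, 13.9, 15.2 and 14 with glucose, 29.7, 31.9 and 29.3 with glutamine, 23.2, 23.3 and 23.7 with both nutrients and 16.5, 17.4 and 19.7 with glucose and NH4Cl. Glutamine alone gave the highest libraries and glucose alone the lowest, with no overlap to other media at either end. Glutamine raised ACAA1 by 0.70 ± 0.072 in glucose and by 0.61 ± 0.068 from neither nutrient, while glucose changed it by -0.38 ± 0.063 (SE, edgeR adjusted p = 3.23e-08) in glutamine. NH4Cl raised it by 0.31 ± 0.077 (SE, edgeR adjusted p = 0.000517). ACAA1 shares 1403 exon bases with DLEC1 on the other strand. EHHADH, the bifunctional enzyme for straight chains, ran from 9.19 ± 1.41 CPM with neither nutrient to 14.4 ± 0.447 CPM with glutamine. It changed by 0.17 ± 0.087 with glutamine in glucose, which did not pass.

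The thioesterases release free fatty acids from CoA esters. ACOT7 (ENSG00000097021, chr1:6264269-6394391, minus strand), the cytosolic form, stood at 225, 233 and 231 CPM with neither nutrient, 82.5, 83 and 80.5 with glucose, 122, 123 and 121 with glutamine, 154, 148 and 143 with both nutrients and 89.3, 86.1 and 91.4 with glucose and NH4Cl. No medium overlapped another, in the same order as for ACOX3. ACOT7 rose by 0.86 ± 0.032 (SE, edgeR adjusted p = 2.02e-64) when glutamine was added to glucose, and NH4Cl raised it by 0.12 ± 0.034 (SE, edgeR adjusted p = 0.00458). With NH4Cl in place of glutamine it changed by -0.74 ± 0.032 (SE, edgeR adjusted p = 1.08e-55). The level with neither nutrient was 2.79-fold that with glucose. ACOT7 shares 837 exon bases with a gene on the other strand.

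ACOT9, a mitochondrial thioesterase gene, moved the opposite way. It stood at 88.8, 89.2 and 84.2 CPM with neither nutrient, 93.9, 92.7 and 95 with glucose, 75.2, 73.9 and 77.1 with glutamine, 62, 65.3 and 63.4 with both nutrients and 81.4, 88.3 and 83.1 with glucose and NH4Cl. The libraries with both nutrients lay lowest, and those with glucose alone highest. ACOT9 changed by -0.56 ± 0.035 (SE, edgeR adjusted p = 1.27e-35) when glutamine was added to glucose, the largest fall of the 32 in that comparison, and NH4Cl changed it by -0.15 ± 0.034 (SE, edgeR adjusted p = 7.89e-05). With NH4Cl in place of glutamine it was higher by 0.41 ± 0.036 (SE, edgeR adjusted p = 6.07e-22), and glucose added to glutamine changed it by -0.25 ± 0.037 (SE, edgeR adjusted p = 7.98e-10). ACOT8, the peroxisomal form, was highest with both nutrients at 19.8 ± 0.429 CPM, above the libraries of every other medium. Its rise of 0.20 with glutamine in glucose was lost without the library glucose 1 (0.17, edgeR adjusted p = 0.0607).

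Among the regulators, PPARA (ENSG00000186951, chr22:46150521-46243756, plus strand) set the medium with neither nutrient apart. PPARA stood at 5.36, 5.47 and 6.38 CPM with neither nutrient, 13.5, 15.1 and 14.8 with glucose, 14.5, 15 and 14.8 with glutamine, 18.7, 17.5 and 18.5 with both nutrients and 15.5, 17.4 and 15.9 with glucose and NH4Cl, the widest span of the 32 at 3.17-fold. Every library with neither nutrient lay under every library of the other media, and those with glucose overlapped those with glutamine. From neither nutrient, glucose raised PPARA by 1.34 ± 0.1 (SE, edgeR adjusted p = 1.01e-26) and glutamine by 1.37 ± 0.1 (SE, edgeR adjusted p = 9.75e-28). Adding the other nutrient raised it further by 0.34 and 0.30. The lower level with NH4Cl in place of glutamine (-0.17, edgeR adjusted p = 0.0447) was lost without the libraries glucose and NH4Cl 1 (-0.14) or 3 (-0.15) and both nutrients 1 (-0.15) or 3 (-0.16).

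PPARGC1B, a coactivator gene of mitochondrial metabolism, was higher in both media with glutamine. It stood at 8.84, 10 and 11 CPM with neither nutrient, 7.35, 8.02 and 6.67 with glucose, 12.4, 12 and 12.5 with glutamine, 11.8, 11.9 and 13.1 with both nutrients and 7.62, 7.47 and 8.46 with glucose and NH4Cl. The media that held glutamine overlapped each other and lay above all others, and those with glucose overlapped those with glucose and NH4Cl. Glutamine added to glucose raised PPARGC1B by 0.74 ± 0.099 (SE, edgeR adjusted p = 1.19e-11), NH4Cl changed it by 0.09 ± 0.11, and glucose added to glutamine by 0.00 ± 0.09. The latter pair did not pass. PPARD, the receptor found in most tissues, lay at 21.3 ± 0.273 CPM with neither nutrient, under all libraries of the other media, whose means were 26 ± 2.89 CPM to 28.1 ± 0.947 CPM. It changed by 0.05 ± 0.061 with glutamine in glucose, which did not pass.

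On the TMM scale, the changes that led against the medium with neither nutrient were those of PPARA, CPT2, ACAD10 and CPT1A upward with glucose, and of ACOT7, ACAD9, ACOX3 and HADH downward. By edgeR, glucose raised CPT2 by 0.94 ± 0.096 (SE, edgeR adjusted p = 5.2e-18), ACAD10 by 0.52 ± 0.071 (SE, edgeR adjusted p = 2.79e-11) and CPT1A by 0.45 ± 0.031 (SE, edgeR adjusted p = 3.15e-31). Glucose gave log2 changes of -1.48 ± 0.031 (SE, edgeR adjusted p = 7.5e-104) in ACOT7, -1.35 ± 0.048 (SE, edgeR adjusted p = 1.97e-67) in ACAD9, -1.30 ± 0.071 (SE, edgeR adjusted p = 2.49e-42) in ACOX3 and -1.22 ± 0.059 (SE, edgeR adjusted p = 7.34e-49) in HADH. With glutamine the rises after PPARA were 0.63 ± 0.097 (SE, edgeR adjusted p = 2.27e-09) in EHHADH, 0.61 ± 0.068 (SE, edgeR adjusted p = 2.26e-15) in ACAA1 and 0.55 ± 0.071 (SE, edgeR adjusted p = 1.9e-12) in ACAD10. The falls with glutamine were -0.91 ± 0.029 (SE, edgeR adjusted p = 2.05e-73) in ACOT7, -0.76 ± 0.033 (SE, edgeR adjusted p = 1.95e-51) in ECHS1, -0.75 ± 0.036 (SE, edgeR adjusted p = 1.91e-49) in ETFA and -0.75 ± 0.056 (SE, edgeR adjusted p = 2.38e-28) in HADH. These 16 changes kept their direction and their call without TMM scaling.

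**Figure D4:**
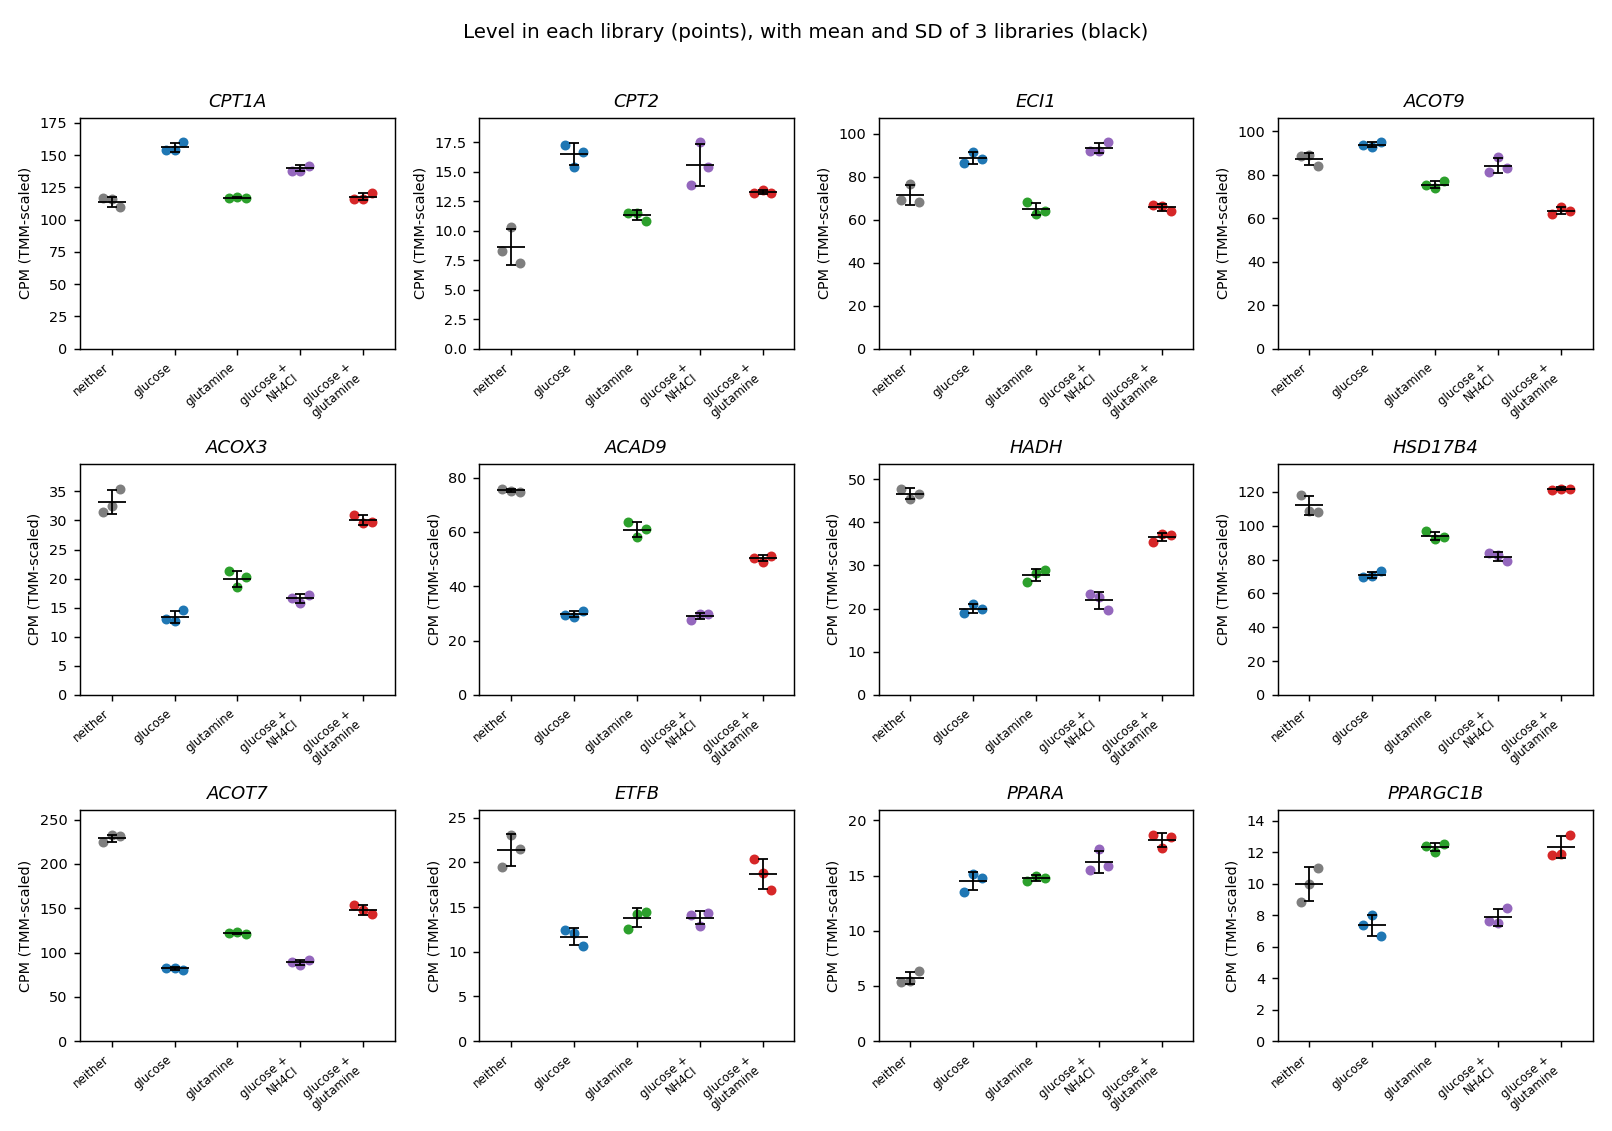
Level of 12 of the genes in each of 15 libraries (points, CPM after TMM scaling, axes from 0) by medium, with black marks for the mean and SD of 3 libraries. CPT1A was highest with glucose alone, at 154 to 160 CPM, while ACOX3, HADH, HSD17B4 and ACOT7 were lowest there.

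By the mean over the media, glucose alone was the lowest medium for 15 of the 32 genes, neither nutrient for 8, glutamine for 6, glucose with NH4Cl for 2 and both nutrients for 1. The highest medium was neither nutrient for 11 genes, both nutrients for 9, glutamine for 7, glucose for 4 and glucose with NH4Cl for 1. Without TMM scaling both nutrients was the highest medium for 18 genes and neither for 3, and the lowest medium was neither for 16 genes, glucose for 10, glutamine for 4 and the other two media for 1 each. Libraries with neither nutrient lay above all others for 8 genes on the TMM scale, which are ACAD9, HADH, HADHA, HADHB, ECHS1, ETFA, ACOX3 and ACOT7. Without TMM scaling they did so for ECHS1 and ACOT7 alone. They lay below all others for CPT2, ACAD10, ETFDH, EHHADH, PPARA and PPARD on both scales, and without TMM scaling for 15 genes in all. The ratio of the highest to the lowest mean had a median of 1.53, exceeded 2-fold for 6 genes, which are ACAA1, ACAD9, ACOT7, ACOX3, HADH and PPARA, and was under 1.5-fold for 16. Per kilobase of merged exons, ECHS1 was most abundant, with a mean over the media of 69.9 CPM per kilobase, then HADHA with 65.9, ACADVL with 51.5 and ACOT7 with 32.5. PPARGC1B with 0.772, PPARA with 1.05 and CPT2 with 1.25 CPM per kilobase closed the order. Merged exons overstate the length of genes with many annotated transcripts, so this order is approximate.

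Other genes of the pathway were counted from a list of 72, of which 63 passed the filter. ACAD11, ACOT4, ACOT6, ACOT12, ACSL5, ACSL6, CD36 and CPT1C were among those that did not pass it. Glutamine added to glucose raised 36 of the 63 and lowered 13, or 57.1% and 20.6%, beside 34.2% and 33.7% of all genes, with a median log2 change of 0.20. DBI, which binds acyl-CoA in the cytosol, stood at 63.3, 63.5 and 68 CPM with glucose, 199, 211 and 203 with both nutrients and 126, 128 and 130 with glucose and NH4Cl. It rose by 1.65 ± 0.033 (SE, edgeR adjusted p = 2.15e-100) with glutamine. FABP5, a fatty acid binding protein gene, stood at 41.3, 40.6 and 40.7 CPM with glucose, 106, 107 and 108 with both nutrients and 46.6, 45 and 48.6 with glucose and NH4Cl. It rose by 1.39 with glutamine, and since FABP5 has near-identical copies in the genome its counts are uncertain. ACSL4, which activates long polyunsaturated chains, rose by 0.89. PEX5, the receptor that brings enzymes into peroxisomes, changed by -0.48 and ACBD5 by -0.45.

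NH4Cl added to glucose raised 18 of the 63 and lowered 5, beside 12.7% and 16.9% of all genes, and the rises of smallest p were those of DBI at 0.98, ACSL3 at 0.65 and ACSL4 at 0.52. ANGPTL4, IVD and PEX13 fell, with log2 changes of -0.50, -0.13 and -0.22. NH4Cl in place of glutamine gave 14 higher, such as PEX5 at 0.55, and 27 lower, such as FABP5 at -1.20 and SCP2 at -0.61, beside 31.2% and 33.4% of all genes. Glucose added to glutamine gave 31 higher and 18 lower, beside 32.6% and 33% of all genes, with GCDH, which degrades the glutaryl-CoA of lysine, at -1.14. Against neither nutrient, glucose gave 23 higher and 29 lower, beside 39.9% and 37.9% of all genes, and glutamine gave 23 higher and 24 lower, beside 37% and 35.8%. Without TMM scaling these were 41 and 12 for glucose, beside 60% and 21% of all genes, and 35 and 14 for glutamine, beside 56.4% and 19.6%. FABP5 changed by -2.61 and -1.24 there on the TMM scale. The interaction was above 0 for 27 and below 0 for 20, beside 36.8% and 38% of all genes, with DBI at 2.81. Without TMM scaling it was above 0 for 21 and below 0 for 31, beside 25.6% and 50.3%.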

How the data were processed

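The values are raw counts of reads per Ensembl gene in 15 H1299 libraries, 3 for each of 5 media, as the authors deposited them without normalization. Per the labels' protocols, the libraries were made from poly(A) RNA with a directional kit. HISAT2 2.1.0, featureCounts, Subread 1.5.1 and the build GRCh38.p12 appear in the submitters' processing notes with no stated role. The annotation, the use of strand in counting and the treatment of reads with several matches are not given in the sources used. GENCODE 29 supplied names, positions and exon lengths and holds 58275 of the 58395 IDs, and RefSeq on GRCh38.p14 supplied promoters.

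Counts were scaled by TMM, filtered with filterByExpr to 16889 genes and tested in edgeR 4.0.16 (R 4.3.3) by the robust quasi-likelihood method, two-sided, with all 15 libraries and 10 residual degrees of freedom. The common biological coefficient of variation was 0.0221. The 32 genes, their role groups and the list of 72 were chosen with earlier results of these data known. Per comparison, full statistics went to up to 4 rises and 4 falls of largest log2 change among called genes of the 32 with at least 5 CPM, and values to up to 3 list genes per direction by smallest p. Others of the 32 were described by role.

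Equal replicate numbers did not pair the libraries. Residuals correlated at a median of -0.0062 over 30 pairs with equal numbers and 0.0059 over 60 pairs with different ones, and 2 of 15 libraries were closest to their own number. Pairs within a medium had a chi-square of 1.231 to 2.462 per degree of freedom, and 0 pairs were identical. The reads carry no molecular identifiers, so counting floors cover counting error only. Each result was recomputed with size factors of DESeq2 1.42.0, its Wald test, library totals alone, both a looser and a stricter filter (no filter, or at least 1 CPM in 3 libraries), only the media compared, a replicate block, a null of 1.2-fold, and without each library. The steps were checked on simulated data with known changes, for NH4Cl added to glucose alone. Of 50 genes changed 1.2-fold, 37 were called, and all 50 were at each of 1.5-fold, 2-fold and 4-fold. Among 16243 unchanged genes, 13 were called. The changed genes had at least 5 CPM, with as many raised as lowered. All media were otherwise given the levels with glucose and the spread of the fit, and few genes were changed. The check therefore does not cover comparisons in which most genes differ, such as those against neither nutrient. Some genes of the wider pathway list are counted but not reported by name here.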

Additional observations from a re-analysis of the deposited data

Results flagged for a closer look

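For 8 of the genes named in the interaction, the effect of glucose differed between media with and without glutamine by the interaction term of edgeR. The log2 interaction was 1.89 ± 0.096 (SE, edgeR adjusted p = 2.22e-46) for ACOX3, 1.77 ± 0.043 (SE, edgeR adjusted p = 1.38e-92) for ACOT7, 1.62 ± 0.081 (SE, edgeR adjusted p = 6.24e-47) for HADH and 1.30 ± 0.11 (SE, edgeR adjusted p = 1.82e-22) for ETFB. In these 4 genes glucose lowered the level in the absence of glutamine and raised it in its presence. The interaction was below 0 for PPARA at -1.04 ± 0.13 (SE, edgeR adjusted p = 8.6e-13), CPT2 at -0.70 ± 0.13 (SE, edgeR adjusted p = 6.95e-07), EHHADH at -0.46 ± 0.13 (SE, edgeR adjusted p = 0.00106) and CPT1A at -0.44 ± 0.044 (SE, edgeR adjusted p = 1.32e-18). In PPARA and CPT2 glucose raised the level in both settings, by less with glutamine. In EHHADH and CPT1A glucose raised the level without glutamine, by 0.41 and 0.45. On the TMM scale the change with glutamine did not pass the test (-0.05 and 0.01), and that of CPT1A was larger without TMM scaling. An interaction was called for 74.8% of all genes tested.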

How the results depend on the processing

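Against a 1.2-fold change, glutamine added to glucose gave 13 higher and 3 lower, beside 22.6% and 21.3% of all genes. NH4Cl added to glucose gave 0 higher and 0 lower, beside 1.35% and 1.28%. NH4Cl in place of glutamine gave 2 higher and 12 lower, beside 18% and 20%. Glucose added to glutamine gave 7 higher and 1 lower, beside 19.6% and 18.8%. Glucose against neither gave 6 higher and 15 lower, beside 32.6% and 30%. Glutamine against neither gave 5 higher and 10 lower, beside 28.4% and 25.9%. The interaction was above 0 for 15 and below 0 for 5, beside 30.7% and 32.5%. With the compared media alone, NH4Cl added to glucose gave 15 higher and 3 lower, beside 15.5% and 15.7% of all genes. With library totals alone, glucose against neither gave 17 higher and 10 lower, glutamine against neither 21 and 7, and the highest medium was both nutrients for 18 genes, neither for 3 and glucose with NH4Cl for 2, and the lowest medium neither for 16 and glucose with NH4Cl for 1. The share of higher calls over all genes then went from 51.3% to 74.1% for glucose against neither, from 50.8% to 74.2% for glutamine against neither, from 49.2% to 33.8% for the interaction and from 49.7% to 60.7% for glucose added to glutamine, and the median of all genes in the last moved by 0.099. Signs turned with library totals alone for glucose against neither in SLC25A20 (0.21), ACADM (0.21), ACADVL (0.32), HADHB (0.32), DECR1 (0.24), DECR2 (0.04), PPARGC1B (0.00) and CRAT (0.23). They turned for glutamine against neither in ACADM (0.15), ACAD9 (0.03), HADHB (0.23), ECI1 (0.21), ACAA2 (0.22), DECR1 (0.08), HSD17B4 (0.09) and ACOT9 (0.13), and for the interaction in HADHB (-0.20), ACAA1 (-0.24), ACAA2 (-0.29) and CRAT (-0.07). Leaving out each library gave 20 to 23 higher and 4 to 5 lower for glutamine added to glucose. All genes gave 32.3 to 32.6% and 31.1 to 31.8% in those fits. NH4Cl added to glucose gave 7 to 11 and 3 to 4, beside 10.3 to 11.4% and 14 to 15.2%. NH4Cl in place of glutamine gave 3 to 4 and 18 to 21, beside 28.8 to 29.2% and 31 to 31.7%. Glucose added to glutamine gave 17 to 19 and 4 to 5, beside 30 to 30.6% and 30.4 to 30.8%. Glucose against neither gave 9 to 11 and 21, beside 37.4 to 38.4% and 36 to 36.7%. Glutamine against neither gave 9 to 10 and 17 to 18, beside 34.5 to 35% and 33.7 to 34.2%. The interaction gave 18 above 0 and 9 below 0, beside 35.5 to 36.1% and 36.4 to 37%. Of 174 calls over 224 gene and comparison pairs, 20 were lost in at least 1 such fit. With the replicate block, NH4Cl added to glucose gave 3 lower, ACAA2 losing its call (-0.10, edgeR adjusted p = 0.054), and it changed no other call. The cause of these shifts was not tested. DESeq2 size factors, both other filters and the DESeq2 Wald test left each count within 1.5 times. Few counts limit PPARA and CPT2 most, with at least 70 and 92 counts in a library.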
